A study of Mus musculus with 24 samples.

Results

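The response of mouse bone marrow-derived macrophages (BMDMs) to LPS was followed in 10 genes of the basic leucine zipper (bZIP) class. They were the 3 Jun genes Jun, Junb and Jund, the Atf genes Atf2 and Atf3, the Batf genes Batf and Batf3, Jdp2, and the small Maf genes Maff and Mafk. They were chosen by symbol, as the 10 rows with these names among the 24273 genes of the normalised expression table, and all 10 passed the filter on low values, which kept 13901 genes. BMDMs were grown from bone marrow of C57BL/6 mice that carried LysM-Cre, a Cre recombinase at the lysozyme gene Lyz2 that is active in myeloid cells. The control genotype was named LysM-Cre. The second, FosKO, was LysM-Cre with both Fos alleles floxed, so that Cre was meant to remove Fos. The controls are LysM-Cre alone in the design text, but the study's own text adds 1 floxed Fos allele to them. Cells of each genotype were left untreated (0 h) or were exposed to 100 ng/ml LPS, a ligand of TLR4, for 0.5, 1 or 2 h. Total RNA was sequenced from 3 libraries per group, which makes 24 over the 8 groups. The ages of the animals were not given in the labels, nor whether the libraries of a group came from separate animals, so p-values measure the spread between these libraries.

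AP-1 is not a single protein but a set of bZIP dimers that bind short DNA motifs such as TGANTCA. Fos proteins cannot pair with themselves and need a Jun protein, whereas Jun proteins also pair with each other and with Atf and Batf proteins. Batf, Batf3, Jdp2 and the small Mafs lack a transactivation domain of the usual kind, and the dimers they form can occupy sites without activating them or recruit other factors there. In macrophages, LPS acts through TLR4 on the MAP kinases ERK, JNK and p38, which phosphorylate and induce many of these proteins.

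Values were log2 normalised expression, 1 per gene and library. The transformation is not named, and it may carry a shrinkage that understates differences in genes with few reads, and the read depth of each library is unknown here. A gene was called where the Benjamini-Hochberg adjusted p of a limma fit to all 24 libraries was under 0.05, and differences are given with their standard error (SE). Libraries of a group correlated with each other at r of 0.995 to 0.998 across the tested genes. Rn18s-rs5, a gene for 18S ribosomal RNA, stood at 18.57 or more in 19 libraries and apart from these, from 16.65 upwards, in 5. Replicate 1 of FosKO was in this low set at both 0.5 and 1 h, together with LysM-Cre replicate 3 of 0.5 h and replicates 2 and 3 of 1 h. The level of Fos itself was lower in FosKO at 0.5 h but went against the label at the other times. Its difference, FosKO minus LysM-Cre, was 1.49, -0.77, 1.64 and 3.29 at 0, 0.5, 1 and 2 h. LPS raised Fos by 2.41 at 0.5 h in LysM-Cre and changed it by 0.15 in FosKO without a call (adjusted p = 0.396), a difference in response of -2.26 (adjusted p = 1.38e-09). Its relatives Fosl1 and Fosl2 were called lower in FosKO at all 4 times, by 0.85 to 1.64 and by 0.21 to 0.69. The difference for Fosb was -0.25, -0.88, 0.27 and -0.33, called at 0.5 h only. A single value per gene cannot separate the deleted part of the Fos transcript from the rest. Lyz2 was higher by 5.17, 4.89, 4.98 and 5.06. Because the Fos level differs from its label at 3 of the 4 times, the groups are called the libraries labelled FosKO and LysM-Cre, and each direction below is between labels. Macrophage markers such as Adgre1, Csf1r and Cd68 stood at or above 14.61, 14.95 and 15.05 in every library. Of the 11 tested rows of the macrophage list, 4 were called higher and 5 lower in FosKO at 0 h, with 4 and 2, 3 and 3, and 4 and 1 at the later times, where 35.4%, 40.9%, 33.9% and 44.6% of all tested genes were called. Mertk was higher by 0.97, 1.00, 0.89 and 1.65 and Fcgr1 by 0.65, 0.85, 0.63 and 0.73, and Cx3cr1 was lower by 0.67, 0.61, 0.61 and 0.58. The summed macrophage list ran from 165595 to 218007 on the linear scale in FosKO and from 170003 to 203118 in LysM-Cre. Of markers of other cells, Cd4 was called higher (0.36 to 0.44) and Pf4 lower (-0.33 to -0.23) at each time, with Itgax lower at 0, 0.5 and 1 h (-0.27 to -0.25), Xcr1 higher at 1 h (0.42), and Zbtb46 and Col3a1 lower at 2 h (-0.96 and -0.53). The neutrophil markers Ly6g and Elane were not above the filter. The list of neutrophil genes, summed on the linear scale, ran from 298 to 368 in the libraries labelled FosKO and from 363 to 493 in LysM-Cre, with 4, 3, 4 and 5 of its 5 tested genes called lower at 0, 0.5, 1 and 2 h, against 15.9%, 19.7%, 15.9% and 20.3% of all tested genes. The part of these markers in the results was not tested. In bulk RNA, fewer cells with a transcript and less of it per cell cannot be told apart.

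The promoters of the 10 genes were read from the RefSeq windows of GRCm38.p6, which hold 250 bases before each annotated start and 50 after it. Motifs were searched over both parts, in these windows and in those of all genes. Only the 250 bases before the start are printed. All 10 genes matched, with 14 windows, since Jdp2 and Maff have 3 starts each. The windows shown are the 3 that hold a CRE or CRE-like sequence, the motif bound by Atf and Jun dimers, and they are printed for their matches. Jun and Maff were among the 5 of the 10 genes called higher at 0.5 h of LPS, Jund in LysM-Cre not under every alternative. The windows of the other 3, Junb, Jund and Atf3, held no match to the CRE or CRE-like letters. The Atf3 window holds TTACGTCA, which differs from TGACGTCA by T for G and so was not counted. Capitals mark the match to TGACNTCA (CRE-like, of which TGACGTCA, the CRE, is 1 case), searched on both strands. The printed part of the Jun window is chr4:95052223-95052472 on the minus strand. Those of the Maff windows are chr15:79347270-79347519 and chr15:79348152-79348401 on the plus strand.
Jun: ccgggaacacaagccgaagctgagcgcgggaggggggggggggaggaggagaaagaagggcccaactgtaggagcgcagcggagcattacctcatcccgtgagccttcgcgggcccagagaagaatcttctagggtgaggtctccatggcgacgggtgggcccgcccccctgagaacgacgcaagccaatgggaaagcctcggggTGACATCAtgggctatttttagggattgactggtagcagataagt
Maff, middle start: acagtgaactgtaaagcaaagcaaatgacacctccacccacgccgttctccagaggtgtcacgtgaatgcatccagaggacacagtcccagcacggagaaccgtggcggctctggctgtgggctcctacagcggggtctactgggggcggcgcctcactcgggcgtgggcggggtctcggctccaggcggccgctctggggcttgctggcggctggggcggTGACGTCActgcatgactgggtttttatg
Maff, last start: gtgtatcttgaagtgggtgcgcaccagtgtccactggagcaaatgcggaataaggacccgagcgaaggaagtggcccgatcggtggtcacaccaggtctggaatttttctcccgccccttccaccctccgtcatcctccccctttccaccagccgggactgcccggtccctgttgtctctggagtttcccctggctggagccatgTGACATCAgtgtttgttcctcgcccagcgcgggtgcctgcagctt
Counted from the start, where -1 is the base before it, the match TGACATCA begins at -45 in Jun, TGACGTCA at -29 for the middle start of Maff, and TGACATCA at -45 for the last. A CRE-like match was present in 3 of the 14 windows, against 8.83% of all 32851 windows, and a CRE in 1, against 1.79%. The AP-1 motif TGANTCA was in 0 of the 14, against 7.81%, the kB motif in 2 (the last window of Jdp2 and the last of Maff), against 8.46%, the serum response element core in 0, against 1.63%, and the interferon response motif (GAAA, any 2 bases, GAAA) in 0, against 3.44%. A match is a description of letters and does not show binding, and a missing one says only that these letters are not in these windows. The window given for Jund (chr8:70697489-70697738 before the start) ends before the gene model used for its level, which begins at chr8:70698949. It therefore does not hold the bases next to that model. The window given for Atf3 (chr1:191183334-191183583) lies inside its gene model on the minus strand, which begins at chr1:191218039. It likewise does not hold the bases next to the beginning of that model.

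The 10 genes differed widely in level. Per kb of exon, on the log2 scale, the untreated LysM-Cre libraries gave 12.02 ± 0.015 for Atf3, 10.26 ± 0.07 for Jund, 10.17 ± 0.11 for Junb and 9.82 ± 0.04 for Jun (mean ± SD, n = 3). Mafk (7.76), Jdp2 (7.30), Atf2 (7.09) and Maff (6.05) formed the middle, and Batf (5.01) and Batf3 (3.90) were lowest. In this order only Jund and Junb overlapped between libraries. After 2 h of LPS in LysM-Cre the order had become Atf3 (12.60), Junb (11.41), Jdp2 (11.21), Jund (10.87), Mafk (8.88), Maff (8.57), Jun (8.29), Atf2 (7.36), Batf (6.85) and Batf3 (3.87), with no overlap between neighbours. Jdp2 had moved from place 6 to place 3, and Jun from place 4 to place 7. At the same time in the libraries labelled FosKO, Jun (9.09) stood above Maff (8.92), and Jund (10.96) above Jdp2 (10.51), again without overlap between neighbours. Over all 24 libraries, Jdp2 covered the widest range (4.12) and Atf2 the narrowest (0.40). The plot of expression by time shows each library.

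**Figure D1:**
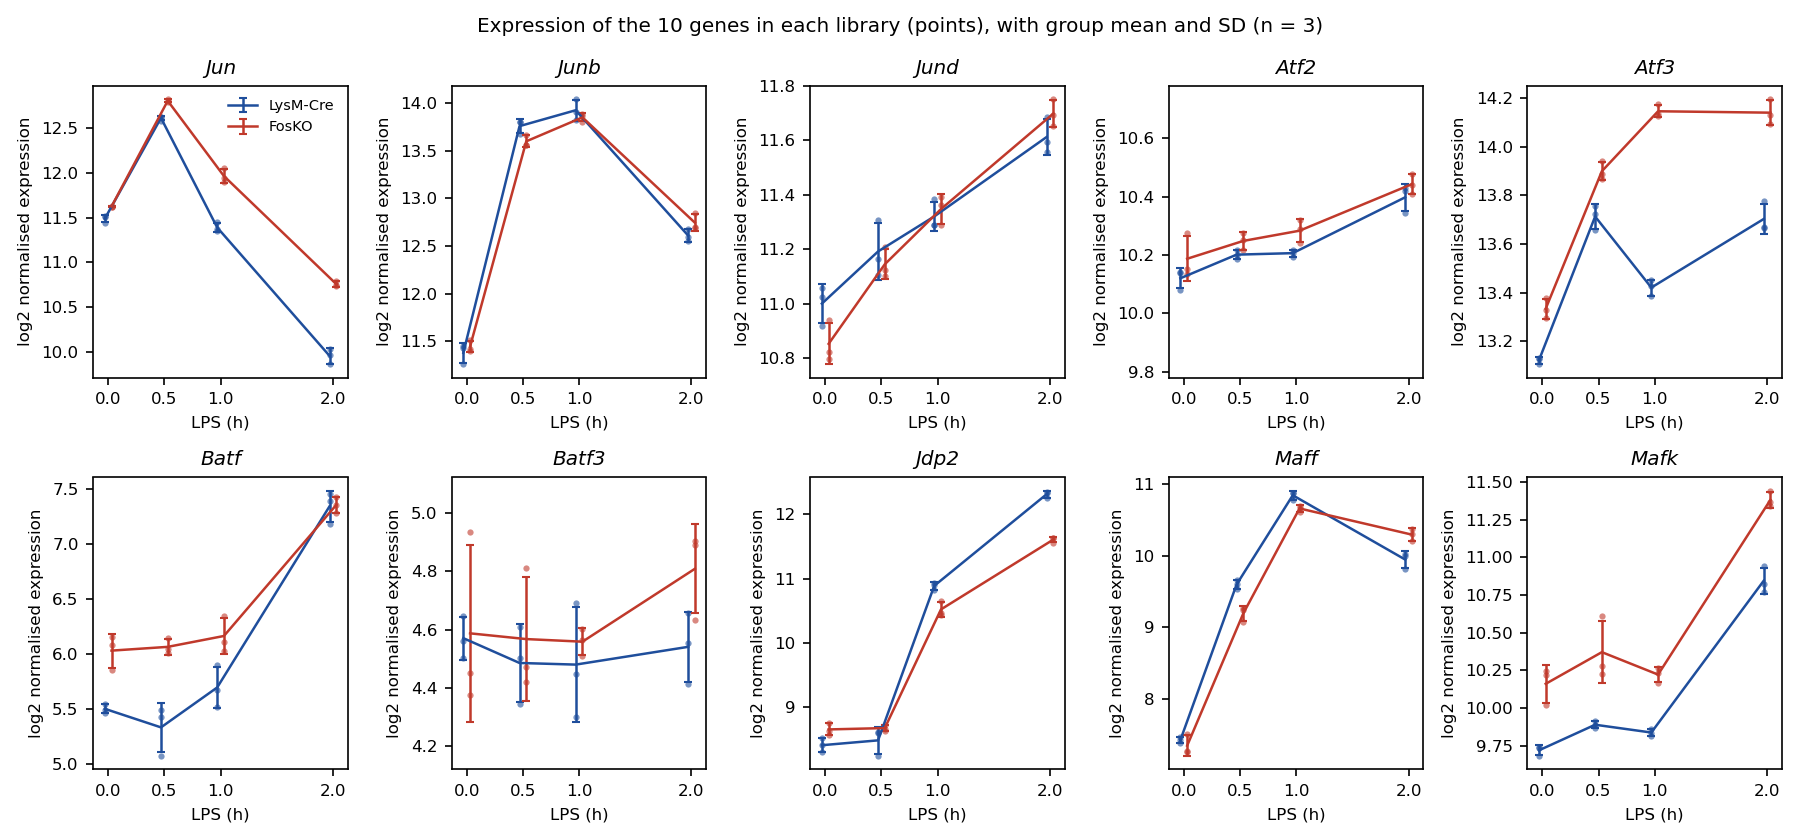
Log2 normalised expression of the 10 genes against hours of LPS, with a point for each library and a line through the group means (bars, SD, n = 3), LysM-Cre in blue and the libraries labelled FosKO in red. Each panel has its own scale. Jun peaked at 0.5 h and Maff at 1 h in both genotypes, Jdp2, Batf and Mafk were highest at 2 h, and the Mafk lines stayed apart at every time.

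Jun (ENSMUSG00000052684, chr4:95049034-95052222, minus strand), the founding member of the family and the usual partner of Fos, rose and fell within 2 h. In LysM-Cre its untreated libraries read 11.44, 11.51 and 11.52, those after 0.5 h 12.58, 12.63 and 12.63, those after 1 h 11.35, 11.37 and 11.45, and the last ones 9.87, 9.98 and 10.04. In the libraries labelled FosKO they read 11.62, 11.62 and 11.63, then 12.79, 12.80 and 12.82, then 11.90, 11.94 and 12.05, and then 10.73, 10.75 and 10.79. The genotypes did not overlap at any time, and the 2 h libraries of both lay below their untreated ones. The rise at 0.5 h was 1.12 (SE 0.04) in LysM-Cre and 1.18 in FosKO, with a difference between these responses of 0.06 (SE 0.06, limma, Benjamini-Hochberg adjusted p = 0.874). What differed was the way down. From 0.5 to 1 h Jun in LysM-Cre fell by 1.22, whereas FosKO fell by 0.84, and at 2 h it was 1.53 below its untreated level in LysM-Cre (0.347 times) and 0.86 below it in FosKO (0.550 times). The difference in response was 0.44 at 1 h (SE 0.06, adjusted p = 9.59e-05) and 0.66 at 2 h (SE 0.06, adjusted p = 7.28e-08), and both calls held under every alternative tried. At 1 h the difference between genotypes of 0.57 was 0.63 among high 18S libraries (2 FosKO, 1 LysM-Cre) and 0.53 among low ones (1 and 2), and at 0.5 h that of 0.19 was 0.21 and 0.16. At 0 and 0.5 h the higher Jun level in FosKO (0.14 and 0.19) was not called after quantile normalisation, and at 0 h also without LysM-Cre replicate 1 (0.11, adjusted p = 0.0627). The antisense gene Junos overlaps Jun, stood at 2.98 to 3.81 over the 24 libraries, and was called in none of the genotype comparisons.

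Junb (ENSMUSG00000052837, chr8:84974484-84978718, minus strand), which often opposes Jun at shared targets, was the Jun gene with the larger rise. LysM-Cre libraries went from 11.25, 11.43 and 11.45 to 13.68, 13.80 and 13.81 at 0.5 h and to 13.83, 13.91 and 14.04 at 1 h, before they came down to 12.55, 12.60 and 12.68. Those labelled FosKO went from 11.40, 11.41 and 11.51 to 13.57, 13.57 and 13.67, to 13.81, 13.87 and 13.88, and to 12.69, 12.70 and 12.85. Untreated libraries were below every treated one in both genotypes. The rises over 0 h were 2.39, 2.55 and 1.23 in LysM-Cre and 2.16, 2.41 and 1.30 in FosKO (SE 0.06 each), that is 5.22-, 5.87- and 2.35-fold and 4.47-, 5.32- and 2.47-fold. No difference in response was called for Junb, and at 2 h it was 0.07 with a 95% interval from -0.11 to 0.24. At 0.5 h it was -0.23 (SE 0.08, adjusted p = 0.722). Between genotypes the 0.5 h difference of -0.16 was called (adjusted p = 0.0371), with -0.12 among high and -0.24 among low 18S libraries, but was lost under several alternatives, among them leaving out any 1 of 4 libraries of that time, replicates 2 and 3 of LysM-Cre and replicates 1 and 2 of FosKO (all -0.14, adjusted p 0.107 to 0.121). At 2 h Junb was higher by 0.13 without a call (adjusted p = 0.0726), and the call was made without LysM-Cre replicate 2 (0.17, adjusted p = 0.0476). Prdx2 overlaps the end of Junb on the other strand, stayed between 10.99 and 11.22, and was called higher in FosKO by 0.11, 0.09 and 0.09 at 0.5, 1 and 2 h.

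Jund (ENSMUSG00000071076, chr8:70698949-70700616, plus strand), the Jun gene with the steadiest expression in most cells, rose gradually. Its LysM-Cre libraries were at 10.92, 11.02 and 11.06 untreated and at 11.56, 11.59 and 11.69 after 2 h, and those labelled FosKO at 10.80, 10.82 and 10.94 and at 11.65, 11.69 and 11.75. The genotypes overlapped at all 4 times. The rise at 2 h was 0.61 in LysM-Cre and 0.85 in FosKO (SE 0.05), and the difference of 0.23 was called (SE 0.07, adjusted p = 0.0381). This call was not firm. It was lost under quantile normalisation (0.18), TMM factors (0.21), no filter and no variance trend, and without any 1 of 8 libraries. These were replicates 1 and 2 (0 h) and 1 and 3 (2 h) of LysM-Cre, and replicates 2 and 3 (0 h) and 1 and 3 (2 h) of FosKO (0.20 to 0.24, adjusted p 0.0640 to 0.101). The lower level in FosKO at 0 h (-0.15, adjusted p = 0.0340) was lost when replicate 1 or 2 of LysM-Cre, or replicate 2 or 3 of FosKO, was left out (-0.14 to -0.12, adjusted p 0.0969 to 0.139). In LysM-Cre the change at 0.5 h (0.19, adjusted p = 0.0278) was lost without replicate 1 or 3 of the untreated group or replicate 2 or 3 of the treated one (0.13 to 0.21, adjusted p 0.0533 to 0.193). This change was also lost under quantile normalisation (0.15), with only the groups compared, and with only the high 18S libraries (0.13). Gm11175, an antisense gene inside Jund, was not called between genotypes.

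Set against each other per kb, the Jun genes traded places. In LysM-Cre the summed level of the trio was 27.5 ± 1.61% Jun, 35.2 ± 1.31% Junb and 37.4 ± 0.407% Jund at 0 h (mean ± SD, n = 3). At 1 h Junb made up 74.0 ± 1.31% and Jun 9.20 ± 0.232%, and at 2 h Junb made up 55.4 ± 0.357%, Jund 38.2 ± 0.171% and Jun 6.38 ± 0.499%. In the libraries labelled FosKO the share of Jun was higher, 13.5 ± 0.630% at 1 h and 9.85 ± 0.249% at 2 h, and that of Junb at 1 h was 69.5 ± 0.777%. The shares come from values that may be shrunken and are given without a test.

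**Figure D2:**
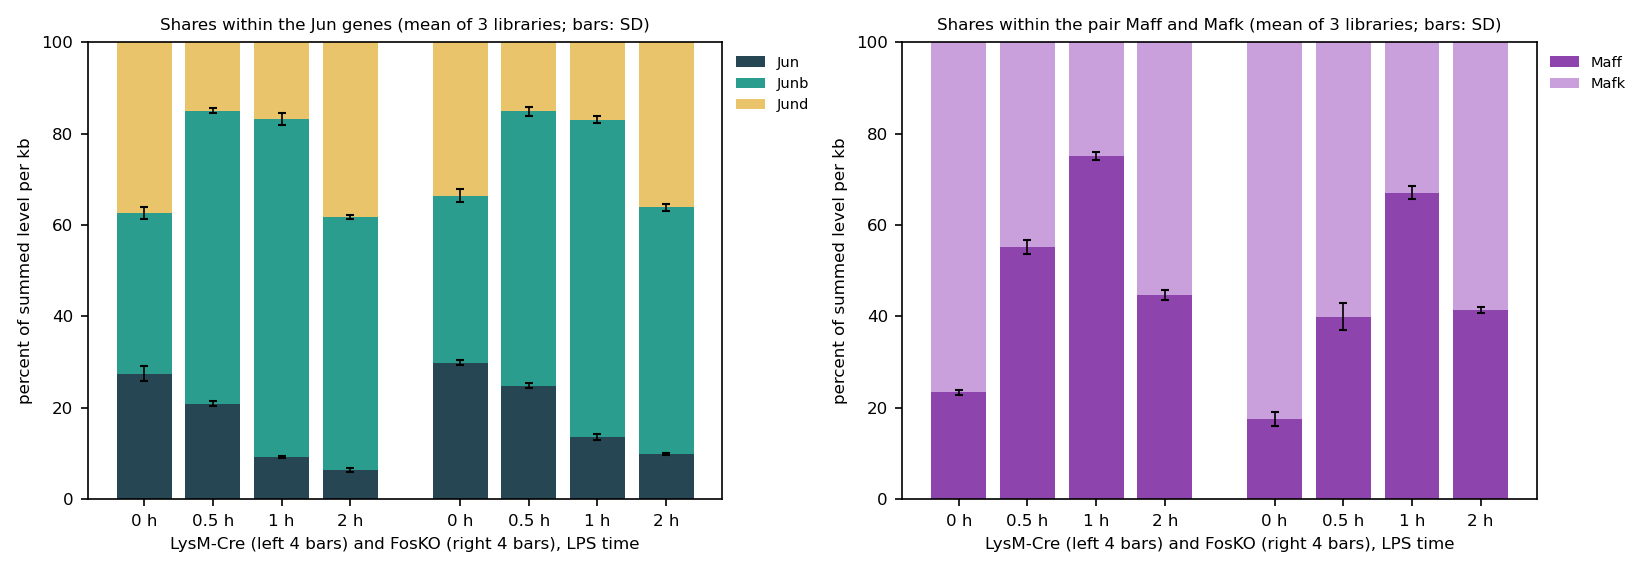
Stacked bars give the mean share of each gene, in percent of the summed level per kb, among the Jun genes (left) and among Maff and Mafk (right) by genotype and hours of LPS, with bars at each boundary for the SD (n = 3) of the share of the gene just below it. Junb fills 74.0% of the Jun bar at 1 h in LysM-Cre, and Maff fills 75.2% of the bar for the pair Maff and Mafk there.

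Atf3 (ENSMUSG00000026628, chr1:191170296-191218039, minus strand), a stress-induced factor known to restrain TLR-driven cytokine genes in macrophages, followed a different course in the genotypes. Its LysM-Cre libraries were at 13.11, 13.13 and 13.13 at 0 h and at 13.39, 13.43 and 13.45 at 1 h, after a group mean of 13.71 at 0.5 h, and at 13.66, 13.67 and 13.78 at 2 h. Those labelled FosKO were at 13.30, 13.33 and 13.38, then at 13.87, 13.89 and 13.94, and reached 14.13, 14.13 and 14.17 after 1 h, with 14.09, 14.13 and 14.19 for the last group. The genotypes were apart at each time. At 0.5 h the rise was 0.59 in LysM-Cre and 0.57 in FosKO (difference -0.03, 95% interval -0.13 to 0.08). From there to 1 h LysM-Cre fell by 0.29 while FosKO rose by 0.25, each called, the latter not after quantile normalisation. The difference in response was 0.51 at 1 h (SE 0.05, adjusted p = 1.62e-06), held under every alternative, and 0.23 at 2 h (SE 0.05, adjusted p = 0.00316), lost under quantile normalisation alone (0.05, adjusted p = 0.628). At 1 h Atf3 was higher in FosKO by 0.72, or 1.65-fold, and by 0.70 in the high and 0.73 in the low 18S libraries. At 0.5 h the higher level of 0.19 (0.22 and 0.11 in the high and low sets) was lost under quantile normalisation.

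Atf2 (ENSMUSG00000027104, chr2:73816509-73892639, minus strand), whose protein is switched on by JNK and p38 phosphorylation, had the narrowest range over single libraries. All 24 lay between 10.08 and 10.48. It rose at 2 h in both genotypes, by 0.28 in LysM-Cre and 0.26 in FosKO (SE 0.03), with a difference in response of -0.02 and a 95% interval from -0.12 to 0.08. Both rises stayed called under every alternative, where the lowest values were 0.15 in LysM-Cre and 0.11 in FosKO. A rise of 0.10 at 1 h in FosKO was called (adjusted p = 0.0344) but was lost without replicate 1 or 2 of either FosKO group (0.07 to 0.09, adjusted p 0.0799 to 0.164). It was also lost under quantile normalisation (0.02, adjusted p = 0.654), TMM factors (0.09), no filter, only the groups compared and only the high 18S libraries (0.09). The genotype differences were 0.07, 0.05, 0.08 and 0.05, none called.

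Batf (ENSMUSG00000034266, chr12:85686669-85709087, plus strand), which joins Jun proteins and IRF4 or IRF8 on composite sites, was low but responsive. LysM-Cre libraries were at 5.46, 5.49 and 5.54 untreated, at 5.07, 5.43 and 5.49 after 0.5 h, at 5.51, 5.67 and 5.89 after 1 h, and at 7.18, 7.39 and 7.45 when LPS had acted for 2 h. FosKO libraries were at 5.85, 6.08 and 6.15, at 6.00, 6.04 and 6.14, at 6.03, 6.11 and 6.34, and at 7.28, 7.35 and 7.42. The libraries labelled FosKO were all higher up to 1 h, and the groups overlapped at 2 h. The difference was thus 0.53, 0.73 and 0.47 (SE 0.12, all called) before it closed to 0.01 at 2 h, with a 95% interval from -0.23 to 0.26. At 0.5 h it was 0.56 among high and 1.07 among low 18S libraries, and at 1 h 0.18 and 0.75, and the 1 h call was not made with the high set alone (adjusted p = 0.392). That set has 1 LysM-Cre library at 1 h, so in fits to it the lone library is assumed to vary like the other groups. By 2 h Batf had risen by 1.84 in LysM-Cre, or 3.58-fold, and by 1.32 in FosKO, and the responses differed by -0.52 (SE 0.16, adjusted p = 0.0389). That call was lost without any 1 of 9 libraries, namely replicates 1, 2 and 3 (0 h) and 1 and 3 (2 h) of LysM-Cre, and replicates 1 and 2 (0 h) and 1 and 2 (2 h) of FosKO (-0.54 to -0.45, adjusted p 0.0550 to 0.0969). The step of 0.36 from 0.5 to 1 h in LysM-Cre was called but not without replicate 3 at 0.5 h or replicate 1 or 2 at 1 h (0.23 to 0.37, adjusted p 0.0518 to 0.165).

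Batf3 (ENSMUSG00000026630, chr1:191097847-191108945, plus strand), best known from conventional dendritic cells, was the lowest of the 10, at no more than 4.93 in any library. It was called by limma in none of the 17 comparisons, with 0 at an unadjusted p under 0.05, and its SD within groups reached 0.30. At 2 h the difference between genotypes was 0.27 (95% interval -0.02 to 0.56), and the change from 0 h in FosKO was 0.22, which was called without FosKO replicate 1 at 0 h (0.40, adjusted p = 0.0147). Irf4 and Irf8, the genes of the Batf partners, parted between genotypes in opposite directions. Irf4 was lower in FosKO by 0.58, 0.81, 1.29 and 0.98 at 0, 0.5, 1 and 2 h, and Irf8 was higher by 0.11, 0.14, 0.31 and 1.33 (all called). The difference in response at 2 h was 1.22 for Irf8 (adjusted p = 3.41e-11), and for Irf4 it was -0.40 without a call (adjusted p = 0.211).

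Jdp2 (ENSMUSG00000034271, chr12:85599027-85639878, plus strand), which dimerises with Jun and recruits histone deacetylases, had the largest LPS response of the 10 in LysM-Cre at 2 h. Its LysM-Cre libraries read 8.29, 8.40 and 8.50 before LPS and 8.23, 8.59 and 8.60 after 0.5 h, then 10.82, 10.90 and 10.94, and finally 12.25, 12.34 and 12.35. In the libraries labelled FosKO they read 8.57, 8.62 and 8.75, then 8.63, 8.66 and 8.71, then 10.44, 10.47 and 10.65, and finally 11.56 to 11.64. The labelled FosKO libraries were above all of LysM-Cre at 0 and 0.5 h and below all of them at 1 and 2 h. No change was called at 0.5 h in either genotype (0.08 and 0.02). The rise over 0 h was 2.49 at 1 h and 3.92 at 2 h in LysM-Cre, or 5.61- and 15.1-fold, and 1.87 and 2.96 in FosKO, or 3.66- and 7.80-fold (SE 0.08). The difference in response was -0.61 at 1 h (SE 0.11, adjusted p = 0.00390) and -0.95 at 2 h (SE 0.11, adjusted p = 4.93e-06). The latter held under every alternative, and the former under all but the fit to the high 18S libraries alone, which has 1 LysM-Cre library at 1 h and gave -0.51 (adjusted p = 0.205). Between genotypes Jdp2 went from 0.25 higher in FosKO at 0 h to 0.37 lower at 1 h (-0.48 in the low 18S set, and -0.26 without a call in the high one, adjusted p = 0.140) and 0.71 lower at 2 h (0.613 times). The 0 h call was lost when LysM-Cre replicate 2 (0.19, adjusted p = 0.101) or FosKO replicate 3 (0.19, adjusted p = 0.103) was left out, and at 0.5 h 0.19 was not called (adjusted p = 0.0587) but was without LysM-Cre replicate 2 or 3 (0.26 and 0.25). At 0.5 h it was 0.25 and 0.07 in the high and low 18S sets.

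Jdp2 and Batf lie on the same chromosome and strand as Fos (chr12:85473890-85477273), 121.8 and 209.4 kb beyond it, so they lie close to the locus that the 2 genotypes differ in by design. Of the 15 other tested genes within 500 kb of Fos, 3 were called between genotypes at 0 h, 5 at 0.5 h and 1 each at 1 and 2 h, where 35.4%, 40.9%, 33.9% and 44.6% of all tested genes were called. The 1 and 2 h gene was Pgf, named here after its values were seen, which was lower by 1.69 and 1.78. A difference in response was called in 0, 1 and 3 of the 15 at 0.5, 1 and 2 h, each negative. Over all tested genes the share was 0.115%, 1.22% and 15%. These were Pgf at 1 and 2 h (-1.44 and -1.52) and, at 2 h, Eif2b2 (-0.18) and Gm47863. Gm47863, a noncoding gene that runs from the Jdp2 promoter on the opposite strand, rose by 1.47 in LysM-Cre and 0.80 in FosKO at 2 h (both called), and its difference in response was -0.67 (adjusted p = 0.0251). The reads were strand-specific per the study's methods, but whether the counting used the strand is not stated, and if it did not, the Jdp2 value could hold some of its reads and the reverse. Distance to Fos and its part in these differences was not tested.

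Maff (ENSMUSG00000042622, chr15:79346621-79359076, plus strand), an inducible small Maf, had the largest rise of the 10 at 1 h. LysM-Cre libraries read 7.38, 7.41 and 7.47 untreated, then 9.53, 9.60 and 9.66, then 10.77, 10.88 and 10.88 after 1 h, and 9.82, 9.99 and 10.03 in the end. FosKO libraries read 7.25, 7.27 and 7.51, then 9.08, 9.24 and 9.26, then 10.62, 10.67 and 10.70, and then 10.21, 10.30 and 10.38. The libraries labelled FosKO overlapped with LysM-Cre at 0 h, were all lower at 0.5 and 1 h, and were all higher at 2 h. The rise at 1 h was 3.43 in LysM-Cre and 3.32 in FosKO (SE 0.07), or 10.7- and 9.99-fold. From 1 to 2 h Maff in LysM-Cre fell by 0.90, whereas in FosKO it fell by 0.37, each called. The genotype difference went from -0.40 at 0.5 h (adjusted p = 6.60e-05; -0.34 and -0.53 in the high and low 18S sets) through -0.18 at 1 h to 0.35 at 2 h (adjusted p = 0.000276). The difference in response was -0.32 at 0.5 h without a call (adjusted p = 0.590) and 0.43 at 2 h (SE 0.10, adjusted p = 0.00407), which held under every alternative. The 1 h difference (adjusted p = 0.0420, with -0.13 and -0.18 in the high and low sets) was lost when replicate 2 or 3 of either genotype at that time was left out (-0.19 to -0.16, adjusted p 0.0798 to 0.137). It was also lost with the 18S set as a term, only the high 18S libraries, median centring, no filter and no variance trend.

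Mafk (ENSMUSG00000018143, chr5:139791513-139802653, plus strand), the other small Maf, was higher in the libraries labelled FosKO throughout. Without LPS the LysM-Cre libraries read 9.68, 9.73 and 9.74, after 0.5 h 9.87, 9.89 and 9.91, after 1 h 9.82, 9.83 and 9.86, and after 2 h 10.77, 10.83 and 10.94. FosKO libraries read 10.02, 10.22 and 10.25, then 10.23, 10.28 and 10.61, then 10.17, 10.24 and 10.27, and then 11.34, 11.36 and 11.44. Every library labelled FosKO was above every LysM-Cre library of its time. The difference was 0.44, 0.48, 0.38 and 0.54 (SE 0.07), or 1.36-, 1.40-, 1.31- and 1.45-fold, called at each time and under every alternative, and it was 0.55 and 0.34 in the high and low 18S sets at 0.5 h and 0.42 and 0.33 at 1 h. The LPS response did not differ with a call at any time. At 2 h it was 1.12 in LysM-Cre and 1.22 in FosKO, with a difference of 0.10 and a 95% interval from -0.12 to 0.31. At 0.5 h the change in FosKO of 0.21 was not called (adjusted p = 0.09997), but it was called without FosKO replicate 1 at 0.5 h (0.28, adjusted p = 0.0269) and with the replicate number as a block within genotype (adjusted p = 0.0370).

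Between Maff and Mafk the balance moved towards Maff, and at 2 h only part of the way back. Maff was 23.4 ± 0.558% of the summed level per kb of the pair at 0 h in LysM-Cre, 75.2 ± 0.813% at 1 h and 44.7 ± 1.03% at 2 h (mean ± SD, n = 3), and in FosKO 17.6 ± 1.52%, 67.1 ± 1.41% and 41.5 ± 0.698%. Mafg, the remaining small Maf gene, was not called between genotypes, and Nfe2l2, which encodes their partner NRF2, was higher in FosKO by 0.46, 0.47, 0.49 and 0.48 (all called).

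Counted over the 10 genes, 6 were called between genotypes before LPS, 5 higher and 1 lower in FosKO, where 35.4% of all tested genes were called (19.5% higher, 15.9% lower). After 0.5 h 6 were called, 4 higher and 2 lower, against 40.9% of all (21.2% and 19.7%). After 1 h there were again 4 higher and 2 lower, against 33.9% (18% and 15.9%), and after 2 h 4 higher and 1 lower, against 44.6% (24.4% and 20.3%). At these backgrounds with so few genes the counts themselves say little about the 10 as a set. The median difference of the 10 was 0.10, 0.13, 0.08 and 0.20, against 0.0025, -0.0032, 0.0020 and 0.0040 over all genes. With the 19 high 18S libraries alone, of which 1 is LysM-Cre at 1 h and is assumed to vary like the other groups, the count at 1 h was 3 (Jun, Atf3 and Mafk), against 21.5% of all genes in that fit. The plot of genotype differences shows that Atf3 and Jun were the most apart at 1 h and Jun and Jdp2 at 2 h. Batf lost its difference at 2 h, and Jdp2 and Maff changed sign with calls in both directions. Junb and Jund also changed sign, but were called in the lower direction only.

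**Figure D3:**
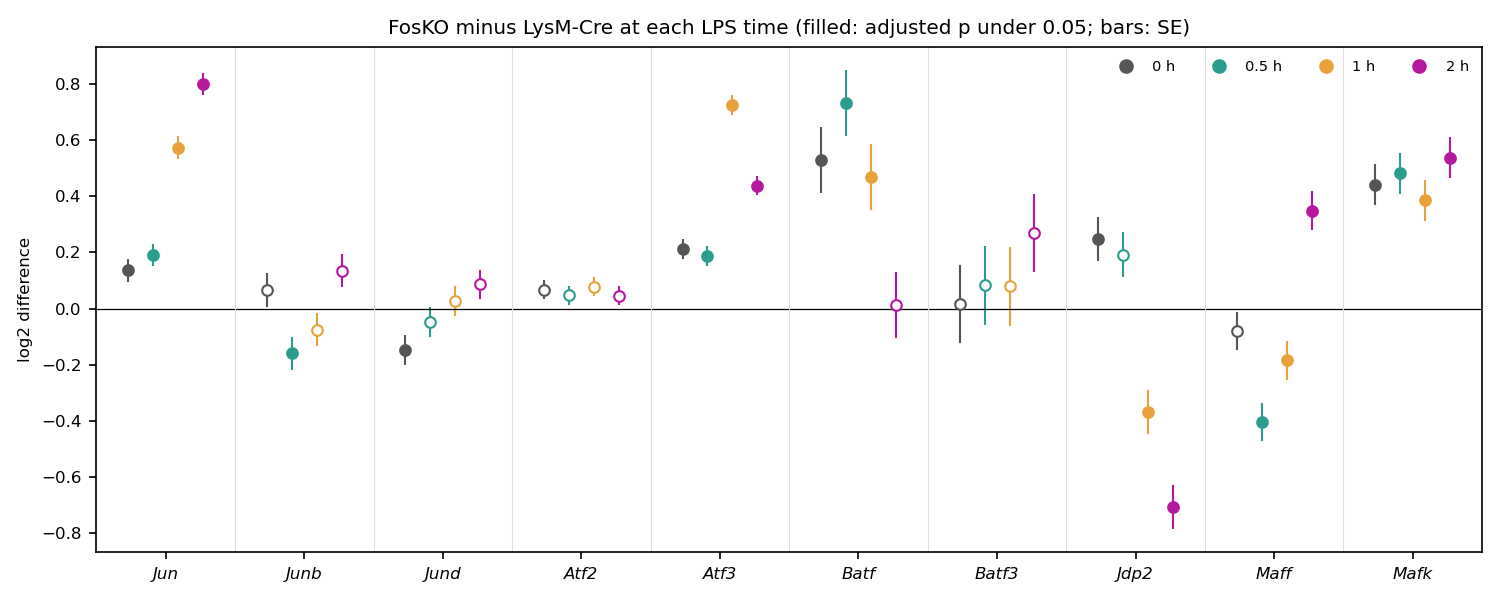
Log2 difference, FosKO minus LysM-Cre, of each gene at 0, 0.5, 1 and 2 h of LPS (points from the limma fit, bars SE), with filled points where the adjusted p was under 0.05. Jun reaches 0.80 and Jdp2 -0.71 at 2 h, and Mafk is between 0.38 and 0.54 throughout.

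LPS changed 5 of the 10 at 0.5 h in each genotype, all of them higher (Jun, Junb, Jund, Atf3 and Maff), where 7.24% of all genes were called in LysM-Cre (5.09% higher) and 5.92% in FosKO (4.45% higher). The call of Jund in LysM-Cre was lost under several alternatives. At 1 h 5 were called in LysM-Cre (35.8% of all genes, 19.2% higher) and 7 in FosKO (32.6%, 17.6% higher), all of them higher. When only the 2 groups compared entered the fit, 8 were called in LysM-Cre (38% of all genes), the 3 added being Atf2 and Mafk (0.09 and 0.12) and, in the lower direction, Jun (-0.10, adjusted p = 0.0458). At 2 h it was 9 in each genotype, 8 of them higher and Jun lower, against 60.8% of all genes in LysM-Cre (30.6% higher) and 62.1% in FosKO (32.6% higher). From 0.5 to 1 h 6 were called in each genotype (26.8% and 27.5% of all genes), and from 1 to 2 h 9 in LysM-Cre and 8 in FosKO (52.3% and 50.7%). From 0.5 to 1 h in LysM-Cre the call of Junb (0.17) was lost under several alternatives. Among them were quantile normalisation (0.05, adjusted p = 0.575), the 18S set as a term (0.16) and only the high 18S libraries (0.09). In FosKO the calls of Junb, Jund and Atf3 for this step were lost under quantile normalisation. A difference in response was called in 0 of the 10 at 0.5 h, where 0.115% of all genes were called and where Junb and Maff had an unadjusted p under 0.05. It was called in 3 at 1 h (Jun, Atf3 and Jdp2), against 1.22%, and in 6 at 2 h (Jun, Jund, Atf3, Batf, Jdp2 and Maff), against 15%. These comparisons share their untreated libraries within each genotype.

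**Figure D4:**
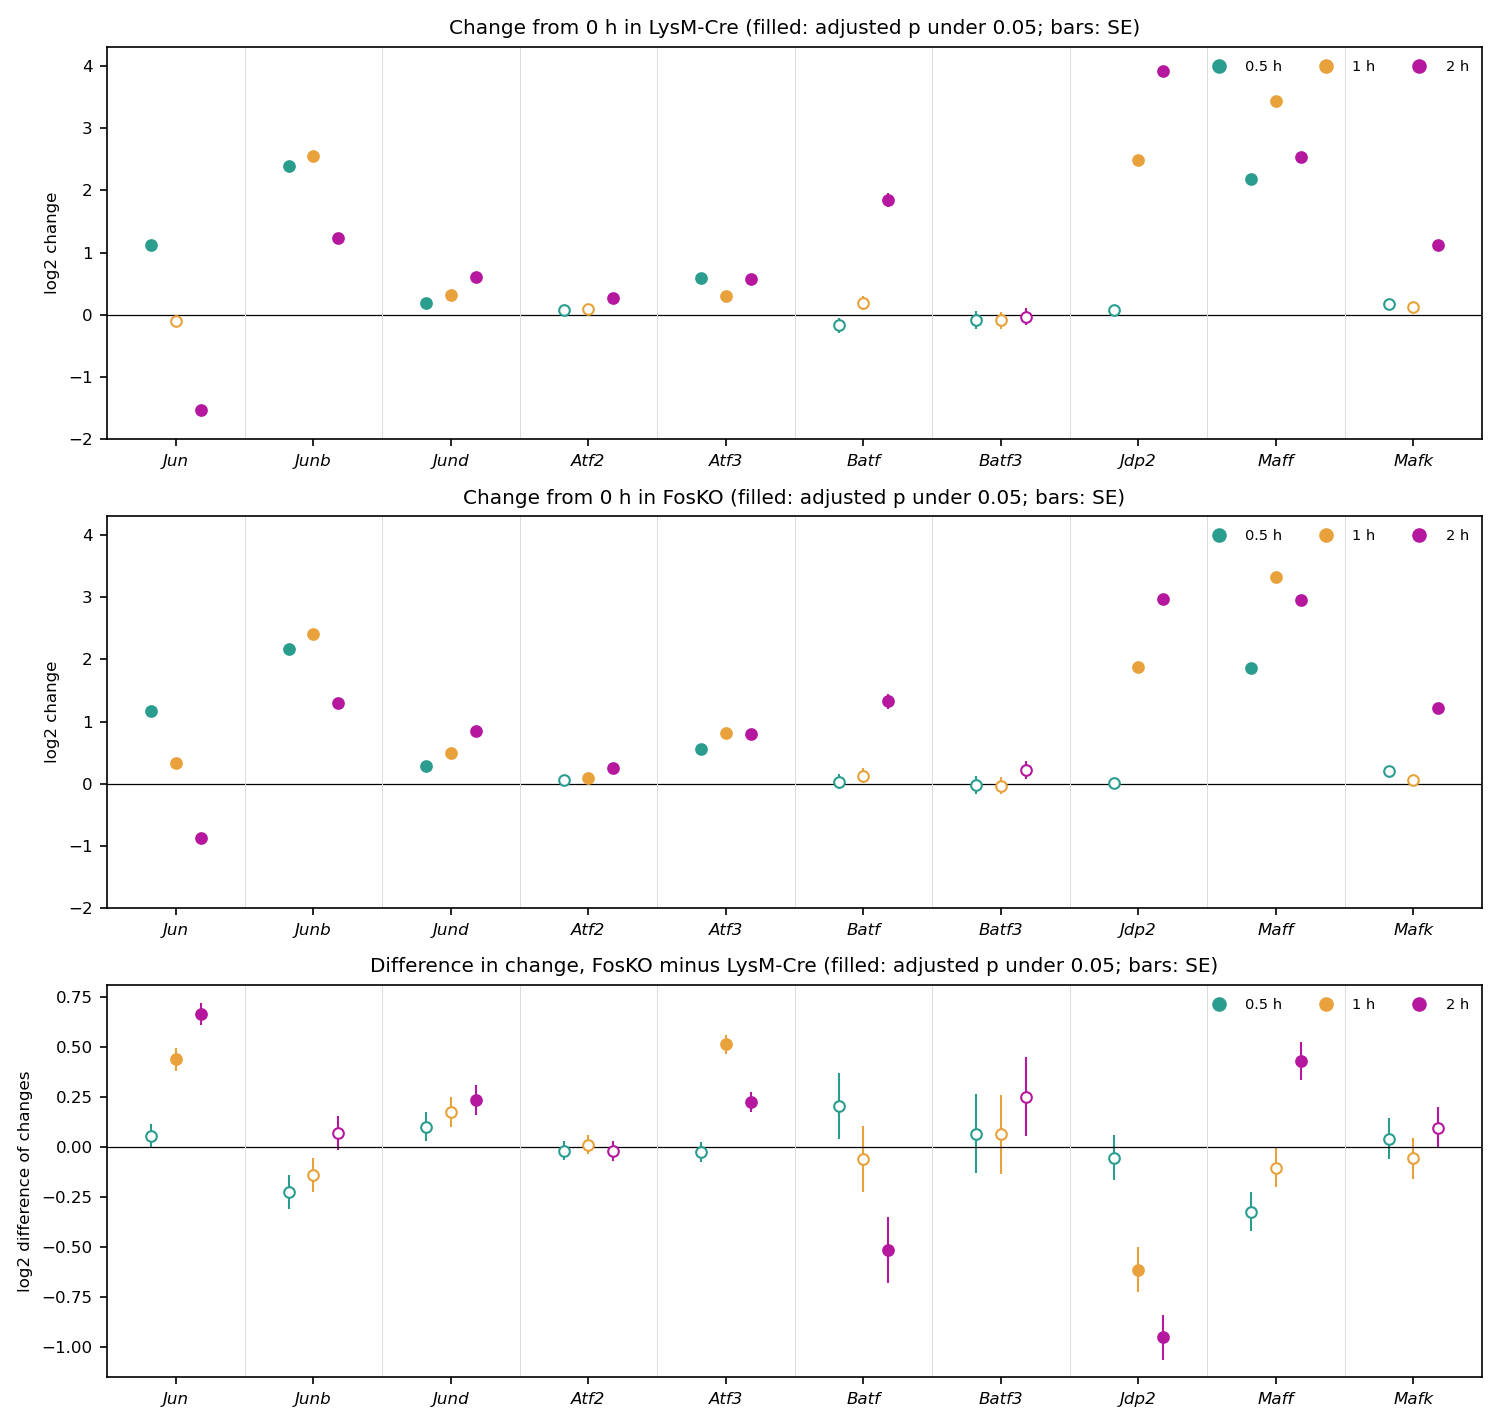
Log2 change from 0 h at 0.5, 1 and 2 h of LPS in LysM-Cre (top) and in the libraries labelled FosKO (middle), and the difference between these changes (bottom, FosKO minus LysM-Cre), from the limma fit with SE bars and filled points where the adjusted p was under 0.05. The largest bottom values are -0.95 for Jdp2 and 0.66 for Jun at 2 h.

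Genes around the 10 were counted from lists chosen by function, and the counts stand against 35.4%, 40.9%, 33.9% and 44.6% of all tested genes called between genotypes at 0, 0.5, 1 and 2 h, and against 15% whose 2 h responses differed with a call. Of 32 tested genes for other AP-1 and bZIP proteins, 13 were higher and 5 lower in FosKO before LPS. The counts were 13 and 8 after 0.5 h, 13 and 5 after 1 h, and 14 higher with 5 lower in the last group. Among the largest besides Fos were Ddit3, which encodes the stress factor CHOP (0.99 at 0 h and 1.18 at 0.5 h), Fosl1 for the Fos relative FRA1 (-1.64 at 1 h), Batf2 (1.11 at 0.5 h) and Creb5 (1.15 at 2 h). Their LPS response differed with a call in 13 at 2 h, 9 positive and 4 negative, among them Creb5 (0.80). Of 13 tested kinases of the JNK and p38 pathways, 4 were higher and 3 lower before LPS, and these counts were 4 and 5, 3 and 3, and 5 and 5 at the later times. Mapk11, a p38 kinase, was lower by 0.58 without LPS and by 0.69 after 2 h. Map2k3, which activates p38, was lower by 0.50 after 1 h and by 0.59 after 2 h. Mapkapk3, for a kinase that p38 activates, was higher by 0.46, 0.54 and 0.48 at 0, 0.5 and 1 h, and Mapk8, for JNK1, by 0.29 after 2 h. Of 16 known targets of NRF2 and small Maf dimers, 3 were higher at each time, and 7, 7, 6 and 4 were lower. The cystine transporter gene Slc7a11 was higher by 1.12, 1.14, 0.83 and 0.84, and Gclc, for glutathione synthesis, was lower by 0.37, 0.30 and 0.44 at 0.5, 1 and 2 h. Under LPS, Slc7a11 rose by 2.55 in LysM-Cre and 2.27 in FosKO at 2 h and Txnrd1, a thioredoxin reductase gene, by 1.45 in each.

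The protein-coding gene whose pattern over the 24 libraries was most like each of the 10, outside the list, was named as a description (Pearson r, n = 24 libraries that share the 8 groups). It was Rhof for Jdp2 and Papd7 for Mafk (0.993 each), Fbxo33 for Maff (0.986), Nfkbid for Junb (0.983), Sh3bp5 for Batf (0.977), Wac for Atf2 (0.964), Mbd6 for Jun (0.962), Srgn for Jund (0.953), Sgk1 for Atf3 (0.919) and Ppp1ca for Batf3 (0.652). Batf3 had the lowest value. Among the 10 themselves, Batf and Mafk were most alike (0.920), and Jun and Jdp2 ran most in opposite directions (-0.792).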

How the data were processed

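The authors deposited 1 table of log2 normalised expression, 24273 genes by 24 libraries, with all columns used. The submitters' processing notes name STAR 2.5.2a, RSEM 1.2.31 and DESeq2 1.16.1. The transformation that gave the log2 values is not given in the sources used here. Values of low genes may be shrunken, which would understate their differences. Counts and read depth were not used here. Of the identifiers, 99.58% were found in the GENCODE M21 annotation of GRCm38, which gave positions and the exon length for levels per kb (log2 value minus log2 of length).

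Genes with a linear value of at least 5 in at least 3 libraries (13901) entered a limma fit (version 3.58.1, R 4.3.3) with a mean for each of the 8 groups, a mean-variance trend and 16 residual degrees of freedom. The fit gave 17 comparisons, with Benjamini-Hochberg adjustment over all tested genes. The procedure was tested on simulated data, but the outcome is not given here. Alternatives were other scalings, a pseudocount of 1, other filters, no trend, only the groups compared, the 18S set as a term, only high 18S libraries, the replicate number as a block, and leaving out each library. Named were the 10 genes in every comparison, at most 3 called genes of each partner list per comparison, Fos, Lyz2 and Rn18s-rs5, and the most similar gene of each. Other genes (overlapping or neighbouring genes, Fosb, Fosl2, Irf4, Irf8, Mafg, Nfe2l2 and cell markers) were named outside this rule, after their values were seen. The 10 genes and the lists were chosen with earlier results of these data known. Same-numbered libraries correlated at -0.53 to 0.71, and every correlation was over 0.1 in 2 of 14 comparisons of groups (FosKO at 0.5 h against 0 h and at 1 h against 0.5 h).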

Additional observations from a re-analysis of the deposited data

Results flagged for a closer look

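The LPS response differed between the libraries labelled FosKO and LysM-Cre, by the interaction term of the limma fit, in 3 of the 10 genes after 1 h (1.22% of all tested genes) and in 6 after 2 h (15%). The difference, FosKO minus LysM-Cre, was 0.44 for Jun, 0.51 for Atf3 and -0.61 for Jdp2 (adjusted p = 9.59e-05, 1.62e-06 and 0.00390). At 2 h it was 0.66 for Jun, 0.23 for Jund, 0.23 for Atf3, -0.52 for Batf, -0.95 for Jdp2 and 0.43 for Maff (adjusted p = 7.28e-08, 0.0381, 0.00316, 0.0389, 4.93e-06 and 0.00407). Of 24 alternatives, the call was lost in 12 for Jund, in 10 for Batf, in 1 for Atf3 at 2 h (quantile normalisation) and in 1 for Jdp2 at 1 h (only the high 18S libraries, with 1 LysM-Cre library at 1 h), and in none for Jun at both times, Atf3 at 1 h, and Jdp2 and Maff at 2 h. Beyond leaving out each library in turn, groups of 3 libraries were not examined for single outlying values.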

How the results depend on the processing

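Over the 17 comparisons 101 values of the 10 genes were called, of which 80 stayed called under every alternative tried, 21 were lost under at least 1 and 0 changed sign with a call, while 14 of the 69 values without a call gained one. The cause of these shifts was not tested. With the high 18S libraries alone, where LysM-Cre has 1 library at 1 h that is assumed to vary like the other groups, the genes called between genotypes at 1 h were 3 of the 10 and 2994 of all, those called at 1 h of LPS in LysM-Cre were 3009, those from 0.5 to 1 h in LysM-Cre 2010, and those with a difference in response 9 at 0.5 h and 93 at 1 h, against 4708, 4970, 3725, 16 and 169. When only the groups compared were fitted, 8 of the 10 were called at 1 h of LPS in LysM-Cre (5 as reported), where 38% of all genes were called. Over all genes such fits called 301 at 0.5 h in FosKO (823 as reported) and 2471 from 0.5 to 1 h in FosKO (3819). For the difference in response they called 6 and 112 at 0.5 and 1 h. Quantile normalisation gave 26 for the difference in response at 0.5 h. Leaving out 1 library at a time gave 542 to 960 genes at 0.5 h in FosKO, the lowest without FosKO replicate 3 at 0.5 h, and 9 to 24 genes for the difference in response at 0.5 h, with 10 and 9 without LysM-Cre replicates 2 and 3 at 0.5 h. The replicate number as a block gave 6, 6, 6 and 5 of the 10 called between genotypes, as reported. Over all genes it gave 5136, 5886, 4876 and 6315 at 0, 0.5, 1 and 2 h, against 4919, 5689, 4708 and 6202. At 1 h of LPS in LysM-Cre both kinds of replicate block gave 7 of the 10, with Atf2 higher and Jun lower (-0.10, adjusted p = 0.0358 and, within genotype, 0.0204) besides the 5 reported. Over all genes these fits called 5150 and, within genotype, 5442, against 4970. The block within genotype gave 25 genes for the difference in response at 0.5 h. In the pair of comparisons where numbers paired the libraries it changed no call of the 10 except Mafk at 0.5 h in FosKO. In 5 of 14 comparisons every library was most alike its own number. Low genes such as Batf3 and Batf have wide intervals, and their depth is unknown.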
